A study of Mus musculus with 8 samples.

Results

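The regions described here are strong distal H3K27Ac peaks whose signal did not move when *Arid1a* was deleted in heart muscle, 942 of the 45980 peaks on chromosomes in a table of 45987. They were chosen by measured values of the same comparison that they describe. A member has a control concentration of 7.5 or more, a difference of *Arid1a cKO* minus control from -0.1 to 0.1, and a centre more than 5000 bp from every curated RefSeq transcription start. The concentration is the authors' log2 of the mean normalised read number of a group, so the limit of 7.5 stands for 181.0 reads and the limit of 0.1 for a change of 7.2% upward. Being strong, distal and unmoved is therefore the definition of these peaks and no finding.

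The tissue was ventricles of P7 mice. Controls carried the floxed gene alone (*Arid1a* f/f), and mutants carried it with a Cre transgene (*aMHC-Cre*;*Arid1a* f/f, named *Arid1a cKO*), so both groups shared the floxed allele and the controls lacked the transgene. The αMHC promoter drives Cre in cardiomyocytes, and the other cells of the ventricle keep *Arid1a*. H3K27Ac was measured by ChIP-Seq in 2 hearts of each group, giving 4 H3K27Ac libraries, with 4 input libraries beside them. The table holds 1 mean per group and 0 columns of single hearts, so the spread between hearts, the depth and the error of a single peak are unknown, and no test between the groups was made. In whole ventricles, fewer cells of a type and less of the mark in each cell cannot be told apart.

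ARID1A is a subunit of the canonical BAF form of SWI/SNF, a complex that slides and evicts nucleosomes with the energy of ATP and opens chromatin for transcription factors. Acetylation of histone H3 at lysine 27 is laid down by p300 and CBP and marks active enhancers and promoters. Distal enhancers are the more cell type specific of these elements, and in the heart they carry sites for GATA, MEF2, NKX, TBX, TEAD and MEIS factors in muscle cells and for ETS factors in endothelium.

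Windows of 200 bases from 5 members are given so that the elements can be read beside their values. They are the members with the highest control signal of all, and the highest of those nearest to a cardiac transcription factor, endothelial and fibroblast gene. Each window is the stretch of the peak with the most motif matches that holds no repeat-masked base and no RefSeq exon, on the plus strand of GRCm38.p6, the assembly of mm10. Capitals mark matches on either strand to any of 14 motifs.

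*Mir8100* and *Adam19*, chr11:46058003-46058202: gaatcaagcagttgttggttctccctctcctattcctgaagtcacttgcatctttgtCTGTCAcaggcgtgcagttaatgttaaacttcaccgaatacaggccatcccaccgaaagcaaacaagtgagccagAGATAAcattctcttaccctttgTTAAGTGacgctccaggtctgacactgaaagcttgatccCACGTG
*Hspg2*, chr4:137472851-137473050: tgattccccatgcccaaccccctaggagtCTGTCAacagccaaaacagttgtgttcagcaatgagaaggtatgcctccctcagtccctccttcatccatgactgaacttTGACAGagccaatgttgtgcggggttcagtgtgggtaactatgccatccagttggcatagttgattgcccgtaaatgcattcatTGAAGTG
*Tead1*, chr7:112660412-112660611: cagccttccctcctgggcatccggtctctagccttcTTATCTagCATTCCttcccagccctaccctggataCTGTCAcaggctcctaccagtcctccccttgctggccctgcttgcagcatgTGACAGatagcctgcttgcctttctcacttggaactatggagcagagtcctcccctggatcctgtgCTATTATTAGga
*Pecam1*, chr11:106665912-106666111: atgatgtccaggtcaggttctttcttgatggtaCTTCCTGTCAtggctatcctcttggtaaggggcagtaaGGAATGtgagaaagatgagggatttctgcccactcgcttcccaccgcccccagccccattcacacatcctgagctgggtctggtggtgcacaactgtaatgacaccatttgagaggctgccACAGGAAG
*Sparc*, chr11:55414659-55414858: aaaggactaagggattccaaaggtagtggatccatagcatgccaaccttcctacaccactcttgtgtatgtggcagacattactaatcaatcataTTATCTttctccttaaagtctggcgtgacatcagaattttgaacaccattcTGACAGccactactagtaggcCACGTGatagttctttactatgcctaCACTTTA

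The searched letters were AGATAA for GATA factors, CATTCC for TEAD, AAGGTCA for estrogen-related receptors (ESRR), CAGGTG for ZEB, CACGTG for MYC, CACTTNA for NKX, AGGTGTNA for TBX, TGANTCA for AP-1, ACNGGAAG for ETS and TGACAG for MEIS. The MEF2 core, the CArG box, the CTCF core and the glucocorticoid element were also searched, and matches of different motifs may overlap. The *Tead1* window held the most matches of those shown, 5, with 2 MEIS matches, 1 GATA, 1 TEAD and 1 MEF2 core. The *Pecam1* window held 4, of which 2 were ETS. A match is a stretch of letters and not a shown binding site, and the windows were picked for holding matches.

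The strongest member covered chr11:46054108-46124331, a peak of 70224 bp centred in an intron of *Adam19*, a membrane metalloprotease of heart development, with *Mir8100* as the nearest start at 13.05 kb. Its group means were 6339 reads in control and 6339 in *Arid1a cKO*. The second lay in *Hspg2*, the basement membrane proteoglycan perlecan, with 5008 and 4939 reads. Both collagen IV genes, *Col4a1* and *Col4a2*, which form the network of the vascular basement membrane, held a member. The peak centred in *Col4a1* had 4068 control reads and 4300 in *Arid1a cKO*. The peak centred in *Col4a2* had 3795 and 3743. Both are wide, 70351 bp and 46570 bp, and neither differed between the groups by more than 0.08 on the log2 scale.

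Further members among the 10 strongest were found in the bodies of *Rbpms*, an RNA-binding protein gene, with 3984 control and 3822 *Arid1a cKO* reads, and of *Elk3*, an ETS factor gene, with 3795 and 3769 reads. A peak 54.24 kb from the long non-coding gene *Gm36037* had 3304 and 3169 reads. *Srl*, which encodes the calcium-binding protein sarcalumenin of the sarcoplasmic reticulum, had 3281 and 3350. The peak centred in *Gnai2*, a G protein subunit gene, and nearest to the start of *Sema3b*, had 2916 and 2998. Thus both muscle genes and basement membrane genes stood among the 10 strongest members, but 7 of these 10 wide peaks also cover a curated start, those named above for *Mir8100*, *Hspg2*, *Col4a1*, *Rbpms*, *Elk3*, *Srl* and *Gnai2*.

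The members spanned a wide range of strength, from 181.0 to 6339 control reads with a median of 321.8, and 94 of them had 1000 reads or more. The median log2 control concentration was 8.33, near the 8.25 of all 3333 strong distal peaks. By the rule, 28.3% of the strong distal peaks were unmoved, set beside 20.6% of all peaks on chromosomes and 47.4% of the 5245 strong peaks centred within 5000 bp of a start. A fall of 1 or more on the log2 scale was present at 279 strong distal peaks, or 8.37%, and at 10.6% of all peaks. The figures for all peaks include weak ones, and below a control concentration of 5, 10.9% were unmoved and 11.7% fell by 1 or more. Of all 8578 strong peaks, near to and far from starts, 40.0% were unmoved and 4.09% fell by 1 or more. Strong distal peaks were thus unmoved less often, and fell more often, than all strong peaks. Within the band, 446 differences were below 0, 42 were exactly 0.00 and 454 were above 0, whereas the median over all strong distal peaks was -0.10 and over all peaks 0.01. The plot of difference by strength shows the members as a thin band at 0 that runs through the whole range of strength.

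**Figure D1:**
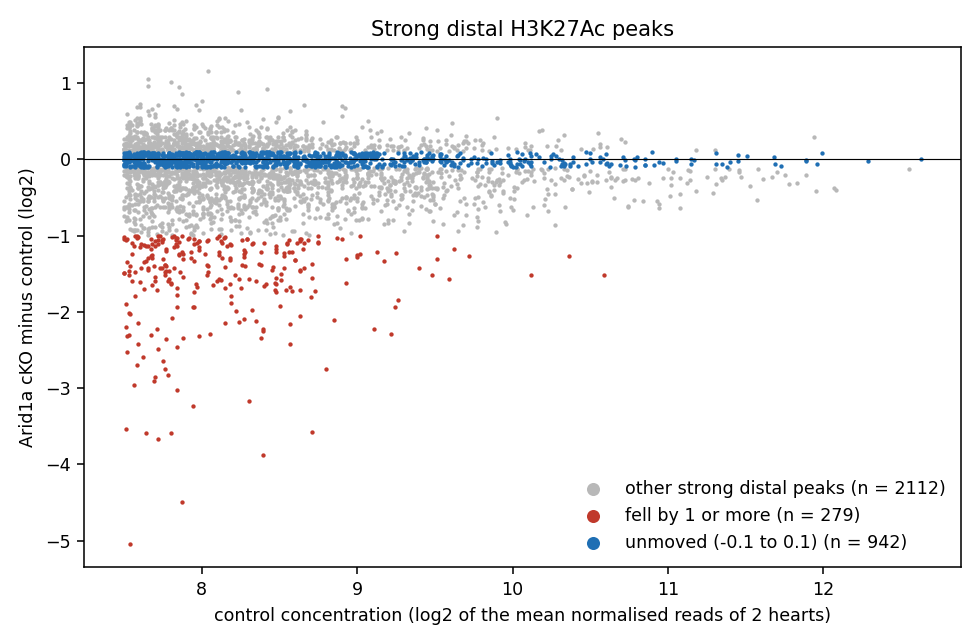
Each point is 1 of the 3333 strong distal peaks, with the control concentration (log2 of the authors' mean normalised reads) on the x axis and *Arid1a cKO* minus control (log2) on the y axis. The 942 unmoved peaks are blue, the 279 that fell by 1 or more are red and the rest are grey, and the red points thin out towards the strongest peaks while the blue band reaches 12.63.

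The limits cut through a continuous distribution. There were 47 strong distal peaks at a difference of -0.10 and 39 at -0.11, and 41 at 0.10 and 49 at 0.11. At the lower limit, the strongest peak inside was nearest to *Ddc*, at 11.38 in control and 11.28 in *Arid1a cKO*, and the strongest outside was nearest to *Lrrfip1*, at 10.27 and 10.16. At the upper limit the corresponding peaks were nearest to *Prpf40b*, at 10.90 and 11.00, and to *Dip2c*, at 9.85 and 9.96. By strength, the peak nearest to *Tmem98* lay just inside at 7.5 and that nearest to *Gm32031* just below the limit, with 179.8 control reads to 181.0 inside. By distance, the peak nearest to *Gimap6* lay just inside at 5011 bp and that nearest to *Tnfaip1* just outside at 4968 bp.

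The share of strong distal peaks that were unmoved was 25.6% (95% Wilson interval 23.2 to 28.1) at a control concentration from 7.5 to below 8, and 37.5% (31.5 to 43.9) from 10 upward. The share that fell by 1 or more was 11.8% (10.1 to 13.7) and 1.29% (0.441 to 3.73) in the same classes. Peaks between 5 and 10 kb from a start were unmoved in 33.0% (28.9 to 37.3), and the 4 classes farther out in 27.2% to 28.1%, with overlapping intervals. Intergenic peaks were unmoved in 32.8% (30.3 to 35.4) and intronic ones in 25.3% (23.4 to 27.3). In 5 classes of width with near equal numbers, the share that fell was 14.4% (11.9 to 17.2) in the narrowest and 2.55% (1.60 to 4.04) in the widest, and width moved with strength (Spearman's rho 0.64 over the 3333 peaks, which share their libraries). These shares come from the contrast that chose the members and are descriptions, and their intervals cover counting error only.

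**Figure D2:**
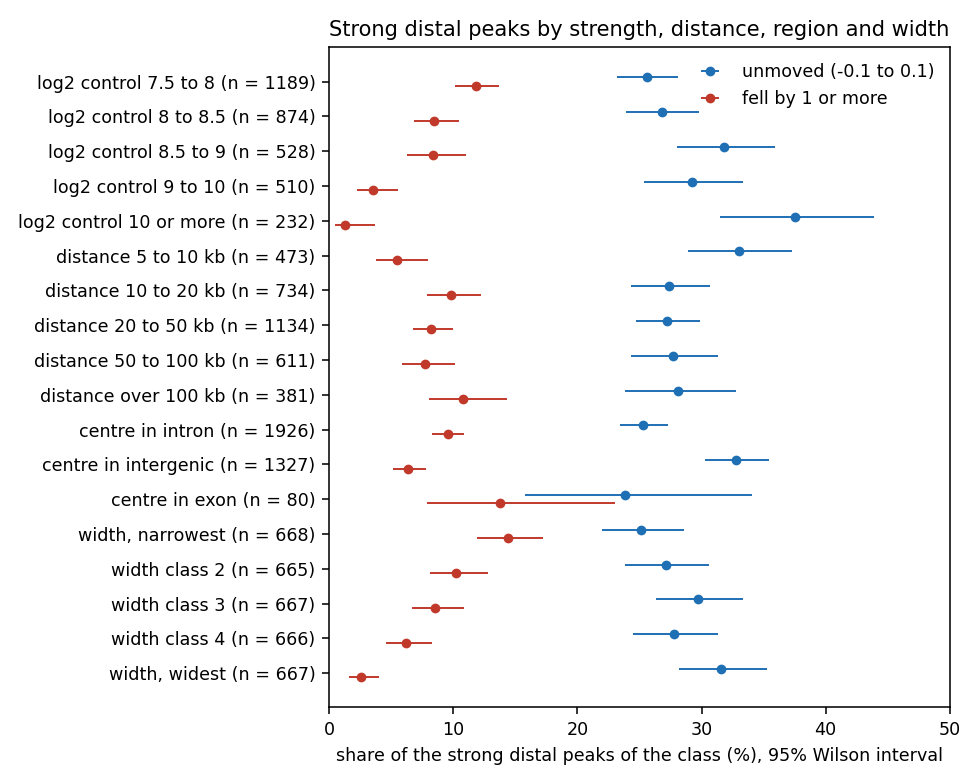
Points give the share (%) of strong distal peaks in each class of control concentration, distance to the nearest start, region and width (narrowest first) that were unmoved (blue) or fell by 1 or more (red), and bars give 95% Wilson intervals. The red share drops from 11.8% to 1.29% with strength and from 14.4% to 2.55% with width, while the blue share lies between 23.8% and 37.5% in every class.

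Members were centred in introns in 488 cases, or 51.8% (48.6 to 55.0), in intergenic sequence in 46.2% (43.0 to 49.4) and in exons in 2.02%. The strong distal peaks that fell were intronic in 65.9% (60.2 to 71.3) and intergenic in 30.1%, compared with 57.8% and 39.8% of all strong distal peaks and 52.9% and 35.0% of all peaks. The intronic share of the members thus lay below that of all strong distal peaks (56.1 to 59.5), and their intergenic share above it (38.2 to 41.5). The peaks that fell were more often intronic than all strong distal peaks. All peaks are no like set here, since they include those near starts and 12.0% centred in exons. The median distance of a member from a curated start was 28430 bp, 276 members lay over 50 kb away and 107 over 100 kb. Distal refers to the centre alone, and 43 wide members, 4.56% (3.41 to 6.09), reached over a curated start. The share was 3.57% (2.99 to 4.26) of all strong distal peaks, with an overlapping interval, and 0 of the 279 that fell. The peaks that fell were narrower, with 2.51% of them 10 kb or wider against 15.7% of members. Of the 94 members with 1000 reads or more, 41 spanned a start, among them the *Hadhb*, *Ryr2*, *Amotl2* and *Cav1* members and the stronger *Sparc* member. The signal of such a peak includes that of the start. A curated or predicted start lay within 1000 bp of the centre of 90 members, 9.55% (7.84 to 11.6), and of 4.30% (2.48 to 7.37) of those that fell. For all strong distal peaks the share was 7.35% (6.51 to 8.29), and its interval overlapped both. Only 350 of the 942 centres lay in the body of the gene with the nearest start, and 157 lay in the body of another gene.

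The median member was 5640.5 bp wide with quartiles of 4118 and 7883 bp, and the median peak that fell was 4322 bp wide. Signal per length was alike, with medians of 62.7 control reads per kb in members and 62.4 in those that fell. Base composition was also close, at a median GC content of 46.96% and 47.66%. CpG dinucleotides were found at a median of 1.21 per 100 bases in members, 1.14 in the peaks that fell and 4.01 in the 2486 strong unmoved peaks near starts. Members thus had the CpG level of the other distal peaks and not that of the promoter peaks that shared their stability by rule.

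Sequence was not used to choose the members, and it was read in 2 ways, over the whole peak and in the central 500 bp. There the searched length is the same for every peak. Members were wider than the peaks that fell, and the central shares were not split by width, so a part of width in them was not tested. In the central 500 bp, the MEIS letters were found in 31.3% (28.4 to 34.3) of members, in 40.5% (34.9 to 46.4) of the peaks that fell and in 33.0% of all 45980 peaks. Here the interval of the peaks that fell lay above both others. It overlapped that of all strong distal peaks, the more like set, at 33.7% (32.1 to 35.3). The ESRR letters were found in 11.9% (9.98 to 14.1), 16.8% (12.9 to 21.7) and 11.3%. ESRR factors drive mitochondrial and contractile genes, and the intervals of members and of fallen peaks overlapped. GATA letters were at 25.5% (22.8 to 28.4) in members, 20.8% (16.4 to 25.9) in those that fell and 21.5% of all peaks.

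ETS letters stand for a whole factor family that includes endothelial factors, and do not mark endothelium by themselves. They were in the centre of 13.9% (11.8 to 16.3) of members, 28 of the 279 peaks that fell (interval 7.04 to 14.1) and 13.9% of all peaks. TEAD letters, the target of the YAP cofactor, were at 25.4% in both sets and 26.4% of all peaks. The MEF2 core, bound by factors of muscle differentiation, was at the centre of 2.97% (2.06 to 4.26) of members and 1.43% (0.559 to 3.63) of fallen peaks, with 28 and 4 peaks, and of 2.58% of all peaks. Over the whole peak it was in 19.9% (17.4 to 22.5) of members and 14.3% (10.7 to 18.9) of fallen peaks. Per length the order turned, with 0.0318 and 0.0346 matches per kb, so the share over the whole peak moved with width. The CTCF core was at the centre of 1 member and of 0.513% of all peaks. Among the motifs not yet given, the central share of members and of all peaks was 30.5% and 28.0% for ZEB, 24.3% and 22.2% for NKX, and 16.0% and 14.4% for AP-1. The MYC letters were at 5.41% and 7.96%, the TBX letters at 4.67% and 4.88%, the CArG box at 3.08% and 2.58%, and the glucocorticoid element at 0.743% and 0.657%. Of the 14 motifs, MEIS alone had a central share in the peaks that fell whose interval did not overlap that of the members.

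**Figure D3:**
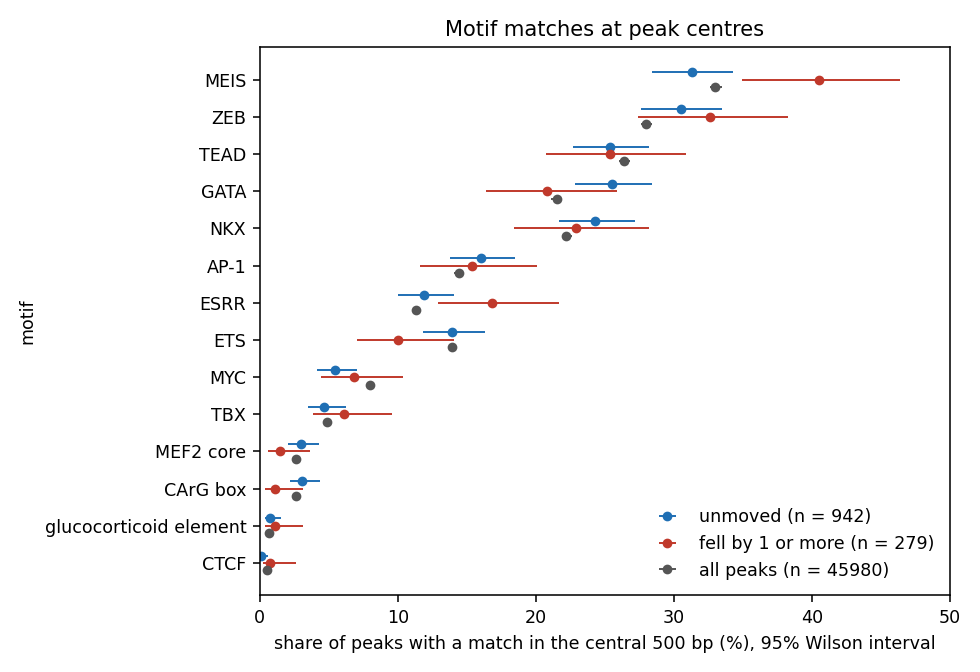
Points give the share (%) of peaks with at least 1 match of a motif in the central 500 bp, in unmoved strong distal peaks (blue), strong distal peaks that fell by 1 or more (red) and all peaks (grey), and bars give 95% Wilson intervals. Blue and red bars overlap for every motif but MEIS, at 31.3% and 40.5%.

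The tissue was checked on the promoters of marker genes, taking the highest peak within 1000 bp of a start. A promoter peak was present for 57 of 60 cardiomyocyte genes with a median of 948.8 control reads, for 42 of 44 endothelial genes with 619.5, for 34 of 35 fibroblast genes with 169.5 and for 14 of 18 smooth muscle and pericyte genes with 362.0. Leukocyte genes had the lowest, at 16 of 26 and a median of 41.4, and *Ptprc*, their defining marker, had none. The median difference at these promoters was -0.25 for cardiomyocyte genes, 0.01 for endothelial, 0.36 for fibroblast, 0.14 for smooth muscle and pericyte and 0.18 for leukocyte genes, and the part of these shifts in the values of the members was not tested. *Myh6*, the α-myosin heavy chain, was at 3591 control and 3929 *Arid1a cKO* reads, and *Tnnt2*, the cardiac troponin T, at 1361 and 1010. *Cdh5*, the endothelial cadherin, was at 1479 and 1618, and *Col1a1*, a fibroblast collagen, at 404.5 and 661.7. The *Col1a1* peak is 19481 bp wide and, by its centre, is also counted among the strong distal fibroblast peaks below. The *Arid1a* promoter was at 1607 and 1663 reads, and since H3K27Ac does not read the deletion, this checks nothing about the loss of the gene.

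Endothelial genes contributed the most members of the 8 gene lists. Of 53 strong distal peaks nearest to 21 endothelial genes, 22 at 13 genes were unmoved, which is 41.5% (29.3 to 54.9) set beside the 28.3% of all strong distal peaks. Another 16 were above 0.1, 12 were lower by less than 1 and 3 fell by 1 or more, and the median difference was -0.01. The genes were *Cav1*, *Cldn5*, *Dll4*, *Epas1*, *Ets1*, *Fabp4*, *Fli1*, *Flt1*, *Kdr*, *Pecam1*, *Ptprb*, *S1pr1* and *Tek*, which include the VEGF receptors, the angiopoietin receptor, a Notch ligand and 2 ETS factors. The intronic peak of *Pecam1*, the adhesion molecule CD31, had 1418 control and 1361 *Arid1a cKO* reads. That of *Cav1*, the coat protein of caveolae, had 1287 and 1218. The strongest *Ets1* member had 1082 in both groups, and the strongest *Fli1* member had 1053 and 1060. Other strong distal peaks of these genes were no members, with *Ets1* peaks up to 0.20 and a *Cav1* peak at 0.12. The 3 that fell were nearest to *S1pr1*, with 2 peaks, and to *Tspan18*, at -3.17. These were named after their values were seen.

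Cardiomyocyte genes had 45 strong distal peaks and 7 members, 15.6% (7.75 to 28.8), and a median difference of -0.30. The upper end of this interval just took in the 28.3% of all strong distal peaks. At 29 peaks the level was lower by less than 1, at 3 it fell by 1 or more and at 6 it was above 0.1. The *Ryr2* member, in the gene of the calcium release channel, had 2006 control and 1938 *Arid1a cKO* reads. The member 19.72 kb upstream of *Nppb*, which encodes the natriuretic peptide BNP, had 861.1 and 879.2, and that 47.30 kb upstream of *Ankrd1*, a stress-responsive sarcomere and YAP target gene, 666.3 and 680.3. A second strong distal *Ankrd1* peak, 10.55 kb upstream, was no member and went from 256.0 to 436.5 reads, a difference of 0.77 that was the highest in the cardiomyocyte and the YAP and TEAD target lists. Further members were nearest to *Ldb3*, *Ttn* and *Xirp1*. The intervals of the endothelial and the cardiomyocyte share did not overlap, but narrowly, with limits at 29.3 and 28.8. They come from the contrast of the rule, and both lists were drawn up with earlier results of these data known. They also count peaks of the same gene as independent. *Kdr* alone gave 10 of the 53 endothelial peaks and 6 of the 22 members, and the share without it was not computed.

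Cardiac transcription factor genes resembled the cardiomyocyte list, with 4 members of 34 strong distal peaks, 11.8% (4.67 to 26.6), and a median of -0.35. This interval lay below the 28.3% of all strong distal peaks. The members were nearest to *Tead1*, the DNA partner of YAP, with 760.1 control and 739.3 *Arid1a cKO* reads, to *Esrrg*, an estrogen-related receptor, with 313.0 and 308.7, to *Irx4*, a ventricular factor, with 259.6 and 250.7, and to *Mef2c* with 207.9 and 218.3. Other strong distal peaks of these genes were lower, at -0.31 and -0.75 for *Esrrg* and at -0.40 for *Irx4*. The 3 peaks of this list that fell lay in *Hdac4*, named after its values were seen, between -1.79 and -2.36.

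YAP and TEAD target genes had 7 members of 17 strong distal peaks, 41.2% (21.6 to 64.0), an interval that held the 28.3% of all strong distal peaks. Another 6 were above 0.1, 4 were lower by less than 1 and 0 fell by 1 or more, and the median was 0.01. The list includes the factor genes *Yap1* and *Tead1* themselves, each with a member. Its *Tead1* and *Ankrd1* members are the same peaks that were counted in the lists above. *Amotl2*, an inhibitor of YAP, had 1531 control and 1541 *Arid1a cKO* reads. The strongest member of *Vgll4*, a competitor of YAP for TEAD, had 1010 in both groups, while other strong distal *Vgll4* peaks differed by -0.31 to 0.20. Fatty acid oxidation genes had 4 members of 12, 33.3% (13.8 to 60.9), with 2 peaks above 0.1, 5 lower by less than 1 and 1 that fell by 1 or more. The members were nearest to *Hadhb*, a subunit of the mitochondrial trifunctional protein, with 2539 and 2435 reads, *Ucp3* with 765.4 and 754.8, the lipid-sensing receptor gene *Ppara* with 560.3 and 522.8, and the lipase gene *Lpl* with 227.5 and 216.8. Stronger *Lpl* peaks were no members and differed by -0.27 and -0.79. Fibroblast genes had 2 of 11, 18.2% (5.14 to 47.7), while 7 of the 11 were above 0.1, with a median of 0.14 and the highest at 0.71. Both members lay in *Sparc*, a matrix protein gene, with 2120 and 2091 reads in the stronger. The intervals of the fatty acid oxidation and fibroblast lists also held the 28.3% of all strong distal peaks. Smooth muscle and pericyte genes had 3 of 10, with 4 above 0.1 and a median of 0.08, at *Smtn* and at *Abcc9* and *Kcnj8*, which encode the subunits of a potassium channel. Leukocyte genes had 0 strong distal peaks.

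**Figure D4:**
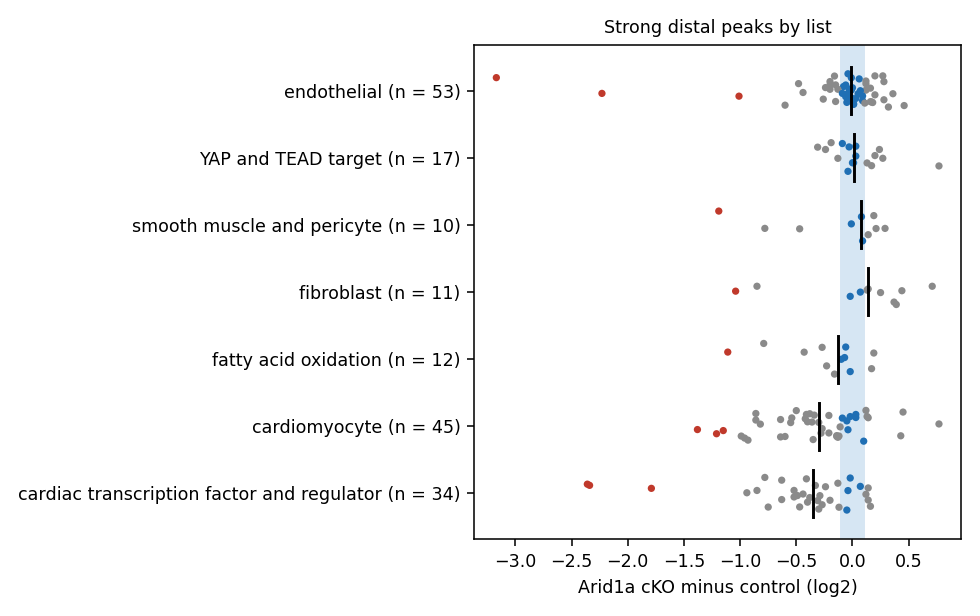
Each point is a strong distal peak nearest to a gene of the list on the y axis, placed by *Arid1a cKO* minus control (log2), blue where unmoved, red where it fell by 1 or more and grey otherwise, and black bars mark the median of the list. The endothelial points gather around 0 with a median of -0.01, and the cardiomyocyte and cardiac transcription factor points lie mostly to the left, with medians of -0.30 and -0.35.

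The members were spread over 803 nearest genes, of which 698 had 1 member, 81 had 2, 16 had 3 and 8 had 4 or more. *Kdr*, the main VEGF receptor of endothelium, had the most, with 6 of its 10 strong distal peaks. They spanned chr5:75824688-76042131, about 217 kb, at 37.77 to 150.4 kb from the start. Their control means were 304.4, 464.6, 910.2, 505.0, 560.3 and 207.9 reads from left to right, and their *Arid1a cKO* means 296.1, 448.8, 879.2, 537.5, 580.0 and 207.9. The 4 strong distal peaks that were not members differed by -0.20 to 0.36. The 17 peaks of any strength nearest to *Kdr* differed by -0.57 to 1.46, so none fell by 1 or more. Its promoter peak had 1160 and 1144 reads.

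The other genes with 4 members were *Tcf4*, an E protein gene with 7 strong distal peaks, *Bach2*, a repressor gene with 6, *Tex44*, and the non-coding or poorly described *1600002D24Rik*, *4933411E08Rik*, *9530026F06Rik* and *Gm32815*. The *Tcf4* members ranged from 205.1 to 1924 control reads and differed by -0.07 to 0.06. The *Bach2* members lay 65.50 to 178.1 kb upstream of the start with 278.2 to 415.9 control reads, and differed by -0.09 to 0.08. *Ablim1*, which encodes an actin-binding protein, had 3 members of 9, and *Akap6*, an anchor of protein kinase A in cardiomyocytes, had 3 of 4. None of the peaks nearest to these 10 genes fell by 1 or more, against 10.6% of all peaks. The genes were picked for having many unmoved peaks, so this follows in part from the choice. Their peaks of any strength did differ, from -0.95 at *Ablim1* to 2.44 at *Akap6*. Those 2 peaks were weak, with 41.36 and 2.445 control reads.

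Members also lay near each other. Another member lay within 10 kb of 117 of them, in 55 runs of 2 or more, of which 7 had at least 3. Within 50 kb, 28.8% (26.0 to 31.7) of members had another member, compared with 22.4% (21.0 to 23.8) of all strong distal peaks and 28 of the 279 peaks that fell (interval 7.04 to 14.1). A peak of any strength that fell by 1 or more lay within 50 kb of 276 members, 29.3% (26.5 to 32.3), and of 73.8% (68.4 to 78.6) of the strong distal peaks that fell. The share was 40.4% (38.7 to 42.0) for all strong distal peaks. Neighbours are read from the same contrast as the rule, so these shares describe how the differences lie along the chromosomes.

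Some members stood beside a strong distal peak that fell, which was the case for 28 members at 28 nearest genes, or 2.97% (2.06 to 4.26), and for 6.21% (5.44 to 7.08) of all strong distal peaks. Over these 28 genes the fallen neighbour had 15.7 to 364.6 *Arid1a cKO* reads, with a median of 108.8 and a median difference of -1.44. The 3 described next are those with the lowest difference of that neighbour. At *Uvrag*, an autophagy gene, the member chr7:99130408-99136050 had 242.2 control and 257.8 *Arid1a cKO* reads. A peak 22.47 kb away from edge to edge, centred in *Dgat2*, an enzyme of triglyceride synthesis, went from 210.8 to 16.6. In *Tns1*, a focal adhesion gene, the member chr1:74049036-74056180 had 257.8 and 254.2 reads, and a peak of the same gene 47.35 kb away went from 222.9 to 18.5. Near *Hgfac*, the member chr5:35032949-35038147 had 319.6 and 328.6 reads, and a peak in *Rgs12* 21.17 kb away went from 182.3 to 15.7. These are the extremes of the 28 and not typical of them.

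**Figure D5:**
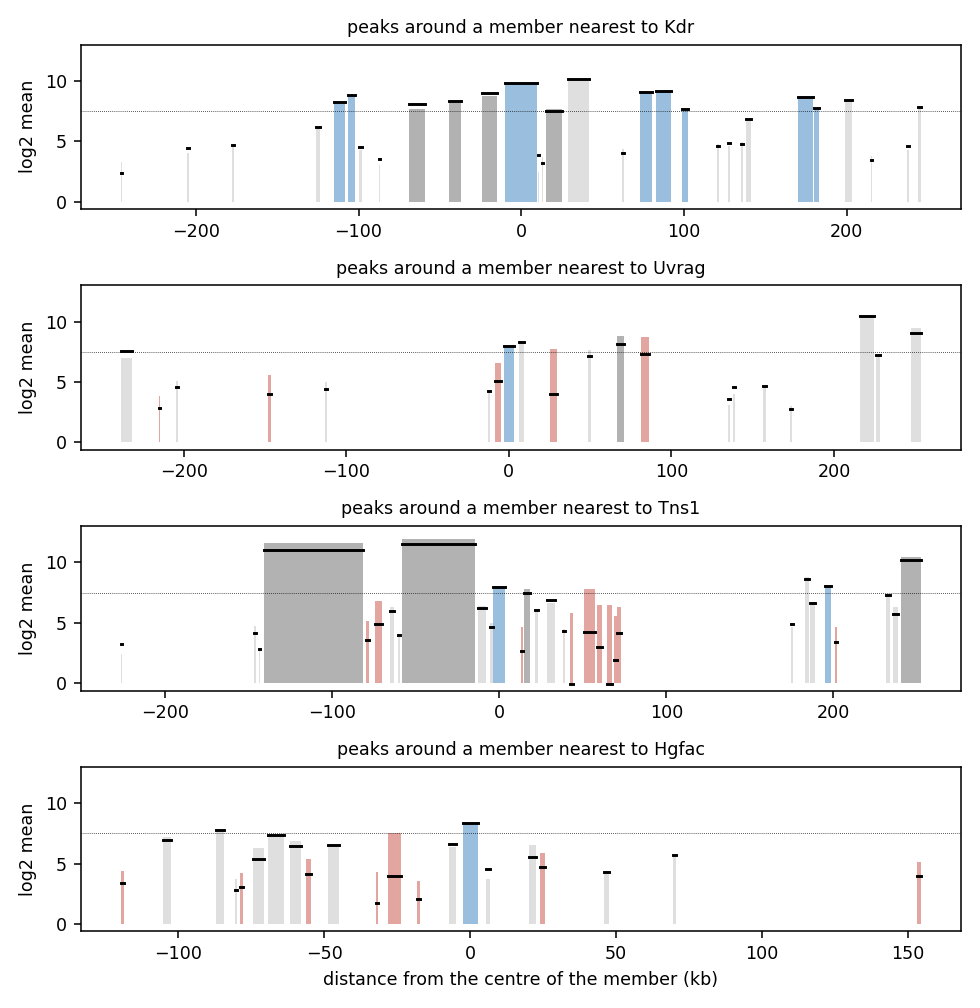
Peaks around a member nearest to *Kdr*, *Uvrag*, *Tns1* and *Hgfac* are drawn by distance from its centre (kb), with bars for the control and black lines for the *Arid1a cKO* log2 mean and a dotted line at 7.5. Members are blue, peaks that fell by 1 or more are red, other strong distal peaks are dark grey and the rest light grey. The black lines sit at the bar tops of the blue peaks and, by the rule of colour, at least 1 below those of the red ones.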

How the data were processed

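H3K27Ac ChIP-Seq of P7 ventricles was compared between 2 *Arid1a* f/f control and 2 *Arid1a cKO* hearts, with 4 input libraries. The submitters' processing notes name BWA 0.7.17-r1188, HOMER 4.11, DiffBind 2.12.0 and DESeq2 1.24.0 on the mm10 build. HOMER was run in its histone style with all inputs pooled as background, and a peak had to be present in 2 or more libraries. The deposited values used are the log2 of the mean normalised read number of each group, called concentrations. Library scaling, and whether input was subtracted from the deposited means, are not given in the sources used here, and the depth is unknown. Further deposited columns, with the authors' fold changes, p-values and FDR, were not used.

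Differences were taken between the group means, and reads are 2 to the power of a concentration. Peaks were annotated with GRCm38.p6 and 45756 curated RefSeq transcripts, and 7 peaks on unplaced sequences were left out. A peak takes its gene from the nearest start. Functions that count motifs and positions were tested on simulated data. Shares carry 95% Wilson intervals (scipy 1.17.1). With 1 mean per group, no test between groups was made.

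The members and gene lists were chosen with earlier results of these data known. Named were the 10 strongest members, the 10 genes with the most members, up to 4 members per list by strength, the peaks at each limit, and up to 3 loci with a fallen neighbour. The windows had to avoid exons and repeats, a condition added later. One item that the naming rule selects is not reported here. Alternatives covered the limits of the rule, the distance and transcript set, centring, strength per kb, the sex chromosomes, the searched stretch and the neighbour distance.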

Additional observations from a re-analysis of the deposited data

How the results depend on the processing

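With limits of -0.05 to 0.05 the rule gave 513 members and with -0.2 to 0.2 it gave 1642, against 942, and ranking strength per kb of width gave 591. The intron share of 51.8% became 56.0% over 2000 bp from a start and 42.3% with strength per kb. The MEF2 core share of 19.9% became 2.97% in the central 500 bp. The share of members with a fallen peak within 50 kb, 29.3%, became 16.9% within 25 kb, 45.3% within 100 kb, 32.6% with limits of -0.05 to 0.05, and 18.9% when neighbours needed a control concentration of 5 or more, an alternative chosen after seeing the data. The share nearest to a cardiomyocyte gene, 0.743%, stayed within its interval under each of its alternatives. Of 60 alternative values, 50 moved by less than the interval of the main value or, for the number of members, by less than 1.5 times.

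No paired analysis was possible because the deposited values are 1 mean per group, so leaving out each heart in turn was not run either. A difference within 0.1 of 0 between means of 2 hearts does not show that a peak was equal in both genotypes, since the spread between hearts is unknown. Intervals cover counting error only.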
